A study of Mus musculus with 2 samples.

Results

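The genes described here are 34 genes of the endoplasmic reticulum (ER) folding machinery and of the unfolded protein response, of 29413 genes that both libraries measured. They were taken from a list of ER folding and stress genes, joined between the libraries by Ensembl identifier, and kept where the 2 libraries together held 20 or more unique molecular identifiers (UMIs, each standing for 1 captured transcript). All 34 passed, as did 13022 genes in all. The lowest was Chac1, with 21 UMIs, and the next was Trib3, with 145. By role the list held 15 chaperones and folding enzymes, 7 genes of the Atf4 branch, 6 of ER-associated degradation, 2 of translocation into the ER, and 4 sensors with their transcription factors.

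Secreted and membrane proteins are threaded into the ER, where chaperones and disulphide isomerases fold them. When unfolded protein accumulates, the sensors Ern1 (IRE1), Eif2ak3 (PERK) and Atf6 signal to the nucleus. Ern1 splices the Xbp1 transcript and Atf6 is cleaved to an active factor, and both routes raise chaperone and degradation genes, while Eif2ak3 slows translation and favours synthesis of Atf4, which drives amino acid, redox and death-related genes. Atf4 is also reached from amino acid shortage and other stresses, so the Atf4 genes need not move with the chaperones. Secretory immune cells such as plasma cells and plasmacytoid dendritic cells are known for a strong Xbp1 programme.

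Lungs came from female Balb/c mice given labelling-4T1 cells intravenously and were collected at day 7. 4T1 is a mouse mammary carcinoma line of the Balb/c strain that seeds the lung, and the labelling derivative is used to mark the cells around it. Sorted immune cells gave 1 library labelled niche and 1 labelled distal, each measured by 10x Genomics 3′ single-cell RNA-seq. Both therefore share strain, sex, tumour cells and time, and both come from metastatic lung, so neither is a tumour-free lung. How many mice stand behind a library, and how the sort was gated, is not given in the sources used here. With 1 library a group there is no test of niche against distal: every interval below is a 95% interval that covers counting error only, and differences between mice, sorts or library preparations cannot be told apart from niche against distal.

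The niche library held 3242 barcodes and 38036915 UMIs, and the distal library 3945 barcodes and 22323465 UMIs. After filtering, 3080 niche cells had a median of 11193 UMIs and 3536 distal cells a median of 5790. The files shared 4 barcodes. Clusters were formed without the 34 genes and named from marker genes. Monocyte/macrophage-like cells numbered 1956 in the niche library and 462 in the distal library, whereas alveolar macrophage-like cells numbered 10 in the niche library and 1115 in the distal library. Neutrophil-like, T cell-like and B cell-like cells were mostly distal. Only the monocyte/macrophage-like and the migratory dendritic-like classes had 50 or more cells in both libraries outside the mixed clusters. Orders of levels over classes leave out the mixed and the low-UMI clusters. The niche matrix header names cellranger-6.0.0 and the distal header 3.0.2, and the gene lists of the matrices differ. Hsp90b1 and Ddit3 each overlap exons of a gene that only the niche list holds, and their niche over distal ratios are uncertain for that reason.

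Niche monocyte/macrophage-like cells had higher levels of most chaperones and folding enzymes than distal ones. Levels are the summed UMIs of a gene over the summed UMIs of the class, on the CPM scale. A gene was taken as past the fold when its log2 ratio was at least 0.32 in size, higher or lower, and its interval excluded 0. Of the 15 chaperones, 13 were past it on the higher side and 1 on the lower side, while across 11291 measured genes 9.07% were higher and 12.9% lower. The median log2 ratio of niche over distal was 0.49 for the chaperones, with 14 of 15 above 0, and -0.02 for all genes, of which 47.6% were above 0. In cluster 1 alone, the largest of the niche library with 46 distal cells, 3 chaperones were past the fold on the higher side and 1 on the lower side, where 2.81% of all genes were higher and 4.75% lower. A sum over the class cannot separate levels within a macrophage state from the mixture of states, and values within clusters are given after those of the class.

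The cofactors of the Hsp70 chaperone of the ER included the gene with the largest ratio. Hyou1, an ER nucleotide exchange factor of the Hsp110 family, was at 31.9 CPM in niche cells (interval 29.7 to 34.1) and 17.5 CPM in distal cells (13.4 to 22.4), a log2 ratio of 0.85. Sdf2l1, which works with the ER Hsp40 proteins, was at 292 CPM in niche cells (285 to 299) and 174 CPM in distal cells (160 to 188), a log2 ratio of 0.75. Dnajb11, an ER Hsp40 co-chaperone, was at 196 CPM in niche cells (190 to 201) and 130 CPM in distal cells (119 to 143), a log2 ratio of 0.59. For each of these the niche interval lay wholly above the distal one. Hspa5 itself, the ER Hsp70 also called BiP, differed less, with 1097 CPM in niche cells (1084 to 1110) and 856 CPM in distal cells (826 to 887), a log2 ratio of 0.36. Dnajc3, an Hsp40 protein of the ER lumen, was at 138 CPM in niche cells and 106 CPM in distal cells, a log2 ratio of 0.38.

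The disulphide isomerases were all higher in the niche library. Pdia4 was at 101 CPM in niche cells (96.8 to 105) and 66.0 CPM in distal cells (57.8 to 75.0), a log2 ratio of 0.61. Pdia6 was at 642 CPM in niche cells (632 to 652) and 424 CPM in distal cells (402 to 446), a log2 ratio of 0.60. Pdia3, the isomerase that serves glycoproteins held by calreticulin and calnexin, was at 709 CPM in niche cells (698 to 719) and 491 CPM in distal cells (468 to 514), a log2 ratio of 0.53. The spread among these isomerases was small: with 0.47 for P4hb, the 4 log2 ratios had intervals that overlapped each other. P4hb, the isomerase that is also a subunit of collagen prolyl hydroxylase, was at 185 CPM in niche cells (180 to 191) and 134 CPM in distal cells (122 to 146).

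Creld2, an ER stress-inducible protein with isomerase activity, was at 93.0 CPM in niche cells (89.2 to 96.8) and 55.3 CPM in distal cells (47.8 to 63.6), a log2 ratio of 0.75. Manf, an ER-resident stress-inducible factor that is also secreted, was at 454 CPM in niche cells (445 to 462) and 322 CPM in distal cells (304 to 341), a log2 ratio of 0.49. Hsp90b1, the ER Hsp90 known as Grp94, was at 858 CPM in niche cells (846 to 869) and 618 CPM in distal cells (593 to 645), a log2 ratio of 0.47. The lectin chaperones split by size of difference. Calr, the soluble lectin, had a log2 ratio of 0.47, with 1096 CPM in niche cells and 793 CPM in distal cells, whereas Canx, its membrane-bound counterpart, had 0.28, with 187 CPM in niche cells and 154 CPM in distal cells, short of the limit.

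Dnajb9 was the exception. This ER Hsp40 protein, known as ERdj4 and as a repressor of Ern1, was at 35.6 CPM in niche cells (33.3 to 38.0) and 55.9 CPM in distal cells (48.4 to 64.2), a log2 ratio of -0.65 (-0.88 to -0.42). Its ratio stayed below 0 under all 14 alternatives, between -1.26 and -0.39, but Dnajb9 was no longer past the fold with every cell thinned to 2000 UMIs, at -0.39, or by the mean over 6 clusters, at -0.45.

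**Figure D1:**
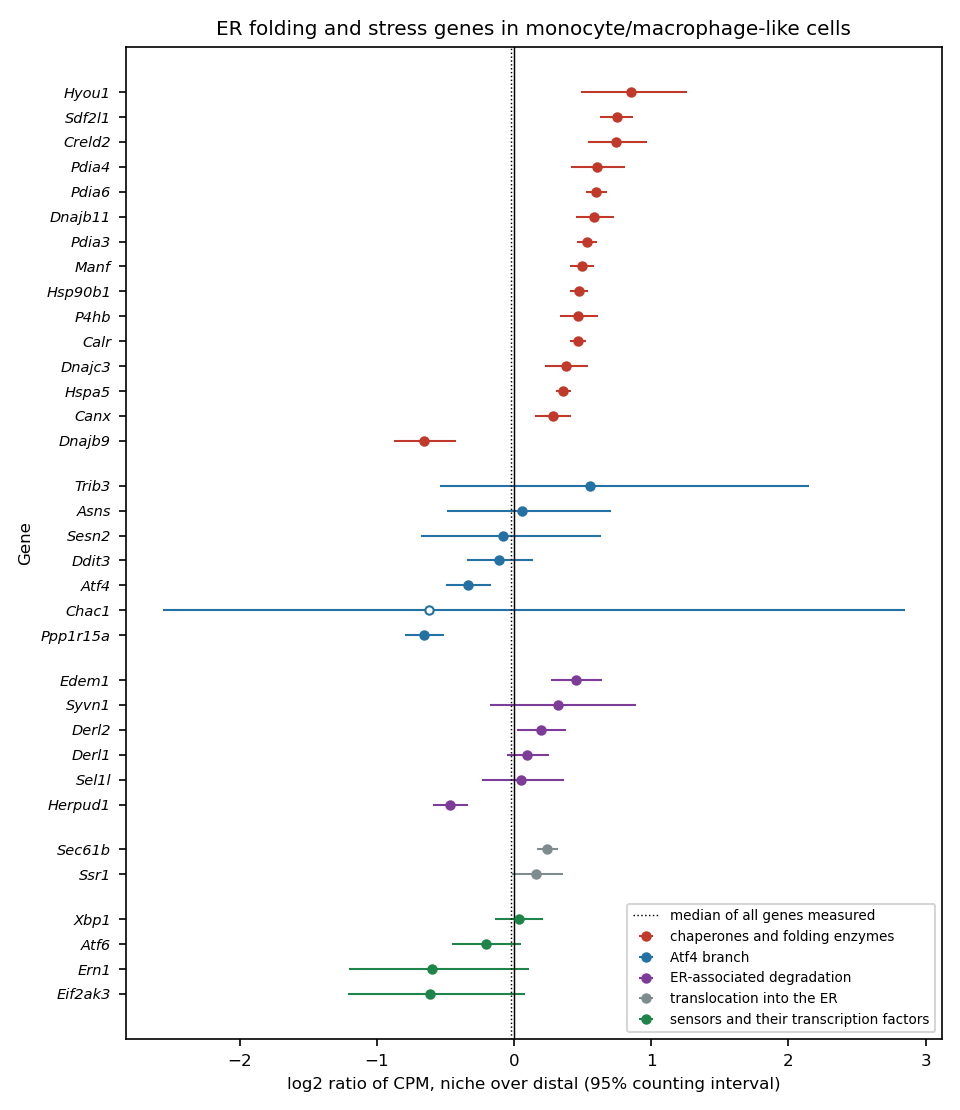
Each point is 1 of the 34 genes in monocyte/macrophage-like cells, with the log2 ratio of CPM in the niche library over the distal library on the x axis and its 95% counting interval as a bar, coloured by role; the open point is Chac1, with fewer than 20 UMIs in the class. The 14 chaperones above 0 lie between 0.28 and 0.85, Dnajb9 lies at -0.65, and the dotted line is the median of all measured genes.

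The Atf4 branch did not follow the chaperones. Of 7 genes, 6 had 20 or more UMIs in the class, and their median log2 ratio was -0.09; none was past the fold on the higher side, where 9.07% of all genes were, and 2 were on the lower side, where 12.9% were. The count of 2 was 1 or 0 under 6 of 14 alternatives. Ppp1r15a, the phosphatase subunit also called Gadd34 that restores translation, was at 85.6 CPM in niche cells (82.0 to 89.2) and 135 CPM in distal cells (123 to 147), a log2 ratio of -0.65 (-0.80 to -0.51). Atf4 itself was at 81.5 CPM in niche cells (78.0 to 85.1) and 103 CPM in distal cells (92.4 to 114), a log2 ratio of -0.34 (-0.50 to -0.17). Both transcripts were thus lower in the niche library by sums over the class. Atf4 is controlled largely at translation, which these counts do not measure.

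The other Atf4 genes had intervals that spanned equality. Ddit3, the transcription factor Chop, was at 43.6 CPM in niche cells and 46.8 CPM in distal cells, a log2 ratio of -0.11. Asns, asparagine synthetase, was at 8.36 CPM in niche cells and 7.90 CPM in distal cells. Sesn2, a sestrin that restrains mTORC1, was at 6.53 CPM in niche cells and 6.77 CPM in distal cells. Trib3, a pseudokinase induced by Atf4 and Ddit3, had 67 UMIs in niche cells and 6 in distal cells, a log2 ratio of 0.55 with an interval from -0.54 to 2.15. Chac1, a glutathione-degrading enzyme and a sensitive Atf4 target, had 11 UMIs in niche cells and 2 in distal cells, too few for a ratio.

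Immediate early genes were mostly lower in niche cells too. A list of 20 genes that tissue dissociation is known to induce had a median log2 ratio of -0.74. Of the 20, 15 were past the fold on the lower side, where 12.9% of all genes were. Hsph1 was past it on the higher side, at 0.62, where 9.07% of all genes were. Egr1, for example, was at 95.2 CPM in niche cells and 309 CPM in distal cells. Summed markers of neutrophils were at 73.6 CPM in niche cells and 198 CPM in distal cells, with all 10 markers detected in both. The 8 T cell markers summed to 10.0 CPM in niche cells and 22.6 CPM in distal cells, and the 9 B cell markers to 24.5 CPM in niche cells and 58.7 CPM in distal cells. The 7 cycling markers differed little, at 75.3 CPM in niche cells and 70.0 CPM in distal cells. The part of dissociation response and of other cells' RNA in the ratios was not tested. Without the cells that held 2 or more UMIs of T cell, B cell or neutrophil markers, 1 Atf4 branch gene was past the fold.

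Genes of ER-associated degradation, which extracts misfolded proteins for the proteasome, were divided. Herpud1, a membrane protein of the degradation complex, was at 120 CPM in niche cells (115 to 124) and 165 CPM in distal cells (152 to 179), a log2 ratio of -0.47. Edem1, which draws misfolded glycoproteins into degradation, was at 101 CPM in niche cells (96.9 to 105) and 73.6 CPM in distal cells (65.0 to 83.1), a log2 ratio of 0.45. The remaining 4 were not past the fold: Derl2 and Derl1, membrane proteins of the export channel, had log2 ratios of 0.20 and 0.10, and the ubiquitin ligase Syvn1 and its partner Sel1l had 0.32, with an interval from -0.18 to 0.89, and 0.05. In cluster 1 alone Syvn1 was at -1.08 (-2.01 to 0.16). The translocation genes Sec61b, a subunit of the Sec61 channel, and Ssr1, a subunit of the translocon-associated complex, had 0.24 and 0.16.

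None of the sensors differed past the fold. Xbp1 was at 89.1 CPM in niche cells and 86.9 CPM in distal cells, a log2 ratio of 0.03 with an interval from -0.14 to 0.21. Atf6 was at 38.0 CPM in niche cells and 43.7 CPM in distal cells, a log2 ratio of -0.21. Ern1 and Eif2ak3 had 119 and 122 UMIs in niche cells and 25 and 26 in distal cells, with log2 ratios of -0.60 and -0.62 and upper ends of 0.11 and 0.08. In cluster 1 alone Ern1 had 27 UMIs in niche cells and 0 in distal cells. Xbp1 splicing, Atf6 cleavage and phosphorylation of the kinases are not read by 3′ gene counts.

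Further genes of the pathway were taken from lists drawn up by function. Of 34 other ER folding and translocation genes, 28 were above 0, with a median log2 ratio of 0.22. Past the fold were 9 on the higher side and none on the lower side, where 9.07% and 12.9% of all genes were. Among those with 100 or more UMIs the highest were the isomerase Pdia5, at 0.76, the translocon-associated subunit Ssr2, at 0.57, and the oligosaccharyltransferase subunit Rpn1, at 0.56. The lowest were the exchange factor Sil1, at -0.32, the translocation protein Sec62, at -0.14, and the Hsp70 relative Hspa13, at -0.08, all short of the fold.

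Of 10 other degradation genes, 1 was past the fold on the higher side, Selenos at 0.33, where 9.07% of all genes were. The median of the 10 was 0.11. The next highest were Vcp, the ATPase that pulls proteins from the membrane, at 0.25, and the mannosidase-like Edem3, at 0.15. The lowest were the Vcp cofactors Ufd1, at -0.17, and Nploc4, at -0.15. Of 22 measured Atf4 targets outside the 34 genes, 4 were past the fold on the higher side and 3 on the lower side. Over all genes 9.07% were higher and 12.9% lower. The median of the 22 was 0.18. The highest were Psat1 of serine synthesis at 0.82, Aldh18a1 of proline synthesis at 0.57, with an interval from -0.05 to 1.32, and Shmt2 of one-carbon metabolism at 0.52. The lowest were the transcription factors Atf3 at -0.94, Atf5 at -0.89 and Cebpg at -0.33. Atf3 is also an immediate early gene, and it stood at 246 CPM in niche cells and 471 CPM in distal cells.

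Promoter sequences are shown for members whose values set the pattern, to let the shared letters be seen. They were read from the RefSeq promoter table of GRCm38.p6, which held a window for 30 of the 34 genes, each from 250 bases before the annotated start to 50 bases after it. Motifs were searched on both strands. The ER stress element was searched only as CCAAT, 9 bases of any kind, and CCACG, and with no other spacing. The element in this form is bound by NF-Y together with Atf6 or Xbp1. It was held by 0.119% of all 32851 windows, by 7 of the 13 chaperones with a window, by 1 of 5 degradation genes (Syvn1), and by 0 of 7 Atf4 branch genes. Its last 5 letters alone, CCACG, which overlap it, were in 32.8% of all windows, in 12 of the 13 chaperones, in 5 of 5 degradation genes and in 5 of 7 Atf4 branch genes.

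The 7 were Hspa5, Hsp90b1, Calr, Canx, Pdia6, Dnajc3 and Creld2. Of the chaperones without the full element in the searched spacing, Sdf2l1, Pdia3, Pdia4, P4hb and Dnajb11 were higher in niche cells, and Dnajb9 was lower. A link between the element and these ratios was not tested. The next lines give the 250 bases before the start on the strand of the gene, 5′ to 3′, with each full element in capitals. Pdia6 is on the plus strand at chr12:17266339-17266588, Hsp90b1 on the minus strand at chr10:86705445-86705694, Creld2 on the plus strand at chr15:88819396-88819645 and Dnajb9 on the minus strand at chr12:44210069-44210318. The element begins 98 bases before the start in Pdia6 and 126 before it in Creld2, where it reads on the opposite strand. Hsp90b1 has 2, beginning 212 and 107 bases before the start, in opposite directions. Dnajb9 has no full element, and so no capitals, but it holds CCACG beginning 108 and 15 bases before its start.
Pdia6: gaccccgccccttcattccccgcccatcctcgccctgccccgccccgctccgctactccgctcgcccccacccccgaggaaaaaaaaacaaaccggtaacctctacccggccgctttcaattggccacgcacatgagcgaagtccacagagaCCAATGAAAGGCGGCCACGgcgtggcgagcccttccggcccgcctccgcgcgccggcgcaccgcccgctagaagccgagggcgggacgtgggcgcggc
Hsp90b1: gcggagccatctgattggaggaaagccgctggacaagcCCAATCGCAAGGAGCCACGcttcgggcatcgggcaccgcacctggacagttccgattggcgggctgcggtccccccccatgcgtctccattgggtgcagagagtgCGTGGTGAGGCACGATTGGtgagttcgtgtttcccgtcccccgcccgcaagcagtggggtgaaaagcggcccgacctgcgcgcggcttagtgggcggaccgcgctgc
Creld2: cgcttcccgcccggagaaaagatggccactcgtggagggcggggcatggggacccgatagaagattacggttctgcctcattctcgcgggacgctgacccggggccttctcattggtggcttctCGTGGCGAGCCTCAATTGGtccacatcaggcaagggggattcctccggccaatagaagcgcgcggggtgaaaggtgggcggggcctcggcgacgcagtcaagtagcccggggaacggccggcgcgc
Dnajb9: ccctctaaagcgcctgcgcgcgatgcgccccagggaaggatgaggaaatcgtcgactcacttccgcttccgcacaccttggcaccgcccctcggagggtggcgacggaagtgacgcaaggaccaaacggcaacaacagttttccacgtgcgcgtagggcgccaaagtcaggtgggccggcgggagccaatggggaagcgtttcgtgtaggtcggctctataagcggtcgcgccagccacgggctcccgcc

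The C/EBP-ATF response element, bound by Atf4 with C/EBP partners, was searched as TGATGNAA and was in 3.97% of all windows. It was in 3 of 7 Atf4 branch genes (Asns, Chac1 and Trib3), in 0 of the 13 chaperones and in 1 of 5 degradation genes, Herpud1. A further element, TGACGTGG, described for Xbp1 and Atf6, was in 0.676% of all windows and in 0 of the 30. Asns, on the minus strand at chr6:7693210-7693459, holds the response element 23 bases before its start. Herpud1, on the plus strand at chr8:94386179-94386428, holds it 112 bases before its start on the opposite strand. Both are shown with it in capitals, since Herpud1 was set apart from the chaperones in the counts and Asns is a textbook Atf4 target. Herpud1 also holds CCACG beginning 122 and 46 bases before its start, not in capitals. In the printed line attggg stands directly before the second of these. The letters attgg are CCAAT on the opposite strand, and this spacing from CCACG was not searched. The absence of capitals there is thus no sign that Herpud1 lacks an ER stress element of another spacing. Whether these motifs bear on the counts was not tested. A match is a run of letters, and no binding was measured.
Asns: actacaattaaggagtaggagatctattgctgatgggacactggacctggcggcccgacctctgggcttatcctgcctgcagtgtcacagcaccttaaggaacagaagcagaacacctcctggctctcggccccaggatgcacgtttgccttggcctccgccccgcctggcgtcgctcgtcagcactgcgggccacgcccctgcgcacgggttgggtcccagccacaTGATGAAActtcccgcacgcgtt
Herpud1: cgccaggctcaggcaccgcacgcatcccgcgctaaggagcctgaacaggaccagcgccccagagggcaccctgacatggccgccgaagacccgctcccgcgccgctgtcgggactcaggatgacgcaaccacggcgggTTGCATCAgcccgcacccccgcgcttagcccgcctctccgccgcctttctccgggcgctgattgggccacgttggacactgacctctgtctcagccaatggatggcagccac

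The class summed 7 clusters whose shares differed between the libraries. Cluster 1, led by Ocstamp and Tgm2, held 28.7% of the class in the niche library (26.7 to 30.8%) and 9.96% in the distal library, and cluster 2, led by Ly6i and Acod1, held 25.2% in the niche library and 12.1% in the distal library. Cluster 3, led by Fabp5 and Apoe, held 14.8% in the niche library and 32.0% in the distal library, and cluster 11, led by Pf4 and Folr2, held 4.24% in the niche library and 27.1% in the distal library. Within clusters the number of chaperones past the fold varied. Their median log2 ratio was 0.30 in cluster 2, 0.37 in cluster 3 and 0.62 in cluster 11, which had 50 or more cells in each library, against medians over all genes of -0.04, 0.02 and 0.06.

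Past the fold on the higher side were 4 of 15 chaperones in cluster 2, where 3.80% of all genes were higher and 4.33% lower, 10 of 15 in cluster 3, where 7.90% were higher and 5.59% lower, and 13 of 15 in cluster 11, where 11% were higher and 6.31% lower. No chaperone was past it on the lower side in these 3 clusters. In clusters 1, 4 and 13, with 46, 40 and 35 distal cells, the medians were 0.30, 0.34 and 0.52. Across the 6 clusters 12 of the 15 chaperones were above 0 in every one. The exceptions were Hspa5 and Dnajb11, at -0.07 and -0.05 in cluster 1, and Dnajb9, above 0 only in cluster 13, with an interval from -0.55 to 1.94. Several of the values above 0 were within counting error, such as Dnajc3 in cluster 1 at 0.08 (-0.30 to 0.51). For all genes, the share above 0 in every cluster is not given. In cluster 1, the largest of the niche library, Hspa5 was at 1183 CPM in niche cells (1158 to 1208) and 1238 CPM in distal cells (1130 to 1354).

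Cluster 11 had the largest chaperone median of the 6. There Manf was at 468 CPM in niche cells and 266 CPM in distal cells, Sdf2l1 at 270.3 CPM in niche cells and 136 CPM in distal cells, and Hspa5 at 1266 CPM in niche cells (1196 to 1338) and 818 CPM in distal cells (756 to 885). Sec61b and Ssr1 were also past the fold in this cluster, with log2 ratios of 0.65 and 0.66, and Ddit3 was at 0.70. Ppp1r15a was at 128 CPM in niche cells and 225 CPM in distal cells there, a log2 ratio of -0.81. Ppp1r15a and Atf4 were below 0 in 5 of the 6 clusters and close to 0 in cluster 1, at 0.09 and 0.02. In those 5 clusters the Atf4 interval always spanned 0, and the Ppp1r15a interval excluded 0 only in clusters 4 and 11. Herpud1 was below 0 in all 6 clusters, from -0.51 to -0.10, with an interval that excluded 0 in clusters 2 and 3. The dissociation list was also below 0 within clusters, with medians of -0.29 in cluster 2, -0.53 in cluster 3 and -0.42 in cluster 11. Summed neutrophil markers in cluster 11 were at 79.9 CPM in niche cells and 282 CPM in distal cells.

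**Figure D2:**
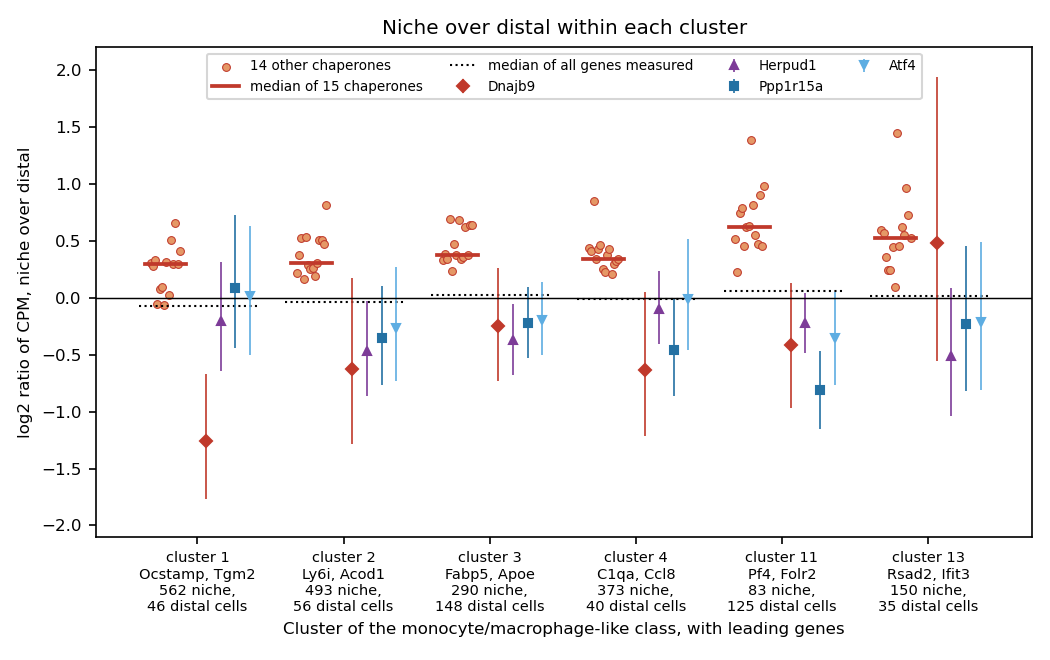
The y axis is the log2 ratio of CPM in the niche library over the distal library within each cluster of the monocyte/macrophage-like class; small points are 14 chaperones, the short line the median of 15, the dotted line the median of all measured genes, and the 4 named genes carry 95% counting intervals. Chaperone medians lie between 0.30 and 0.62, while Herpud1 lies below 0 in each cluster.

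Members also differed between clusters of the same library. Cluster 3 of the niche library was the lowest of the 6 clusters there for Hspa5, at 827 CPM (794 to 860), and for Creld2, at 55.1 CPM (47.0 to 64.2). Of the Atf4 branch, the same cluster was the highest for Ddit3, Trib3, Asns and Sesn2. How many of all genes were highest there is not given. Ddit3 was at 76.5 CPM there (66.9 to 87.2), Trib3 at 10.7 CPM (7.35 to 15.2) and Asns at 17.5 CPM (13 to 22.9). Sesn2 was at 10.4 CPM there, from 31 UMIs. In the distal library Ddit3 was at 60.6 CPM in cluster 3 (46.9 to 77.1), Trib3 at 4.59 CPM from 5 UMIs, and Asns at 14.7 CPM from 16 UMIs. Sesn2 was at 4.59 CPM in distal cluster 3, also from 5 UMIs. Herpud1 was highest in cluster 11 in both libraries, at 260 CPM in niche cells (229 to 294) and 304 CPM in distal cells (266 to 345).

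Migratory dendritic-like cells, 64 niche and 55 distal, were named from Ccr7, Fscn1 and Ccl22. Their niche over distal differences were mostly within counting error. Of 14 chaperones with 20 or more UMIs, 11 were above 0 with a median log2 ratio of 0.29, against 0.07 for all genes, and 1 was past the fold, P4hb, where 8.02% of 4663 genes were. P4hb had 41 UMIs in niche cells and 10 in distal cells, a log2 ratio of 1.29 (0.32 to 2.50). Edem1 was at 129 CPM in niche cells and 70.6 CPM in distal cells, a log2 ratio of 0.86. Ppp1r15a was lower, at 145 CPM in niche cells and 204 CPM in distal cells, a log2 ratio of -0.49, where 5.58% of genes were past the fold on the lower side. Summed neutrophil markers were at 30.7 CPM in niche cells and 1908 CPM in distal cells, and the dissociation list had a median of -0.58; their part in these values was not tested.

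Migratory dendritic-like cells had low chaperones and high Herpud1 in both libraries. Against all other cells of the same library, 14 of 15 chaperones were past the fold on the lower side in each, with medians of -1.50 among niche cells and -1.08 among distal cells, where 19.9% and 22.1% of all genes were lower and 11.8% and 7.76% higher. The median over all genes was -0.18 in the niche library and -0.45 in the distal library. Hspa5 was at 404 CPM in niche migratory cells (355 to 457) and 337 CPM in distal migratory cells (281 to 401). Hsp90b1 was at 267 CPM in niche migratory cells and 209 CPM in distal migratory cells. Low chaperones were not particular to this class. The 36 niche T cell-like cells had Hspa5 at 402 CPM and Hsp90b1 at 230 CPM. Not every chaperone was as low there, with Pdia3 at 306 CPM in niche T cell-like cells and 255 CPM in niche migratory cells. Herpud1 was at 344 CPM in niche migratory cells (299.6 to 394) and 316 CPM in distal migratory cells (262 to 378), with log2 ratios over the other cells of 1.49 and 1.53. Among classes of 50 or more cells, in the niche library the next, proliferating monocyte/macrophage-like cells, was at 141 CPM, and in the distal library conventional dendritic-like cells followed at 251 CPM with an overlapping interval. Asns had 0 UMIs in both, which allows up to 4.85 CPM in niche migratory cells and 7.84 CPM in distal migratory cells.

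Neutrophil-like cells, compared only within the distal library, had low chaperones beside high levels of some Atf4 branch genes. With 357 cells and a median of 1062 UMIs, they were lowest of 10 classes for 13 of 15 chaperones. The share of all genes lowest in this class is not given. Only 3067 of 11992 genes had a log2 ratio above 0 over the other distal cells. Over the other distal cells the chaperone median log2 ratio was -3.0, with 14 of 15 past the fold on the lower side, where 37.2% of all genes were and the median of all genes was -1.06. Calr was at 69.5 CPM in neutrophil-like cells (46.9 to 99.2), a log2 ratio of -3.26, Hsp90b1 at 32.4 CPM (17.7 to 54.4), and Sdf2l1 had 1 UMI, a log2 ratio of -5.09 with an interval from -10.98 to -3.20. Hspa5 was less depleted, at 334 CPM (281 to 393), a log2 ratio of -0.97. Dnajb9 was the 1 chaperone not past the fold, at 57.9 CPM (37.5 to 85.5).

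In the same cells 3 of 6 measured Atf4 branch genes were past the fold on the higher side, where 10.6% of all genes were. Ppp1r15a was at 818 CPM (734 to 907), a log2 ratio of 3.13, and the next of the 10 classes, migratory dendritic-like cells, was at 204 CPM. Sesn2 was at 78.7 CPM (54.5 to 110), a log2 ratio of 2.87, and Ddit3 at 90.3 CPM (64.2 to 123), a log2 ratio of 1.53. The Ddit3 interval overlapped that of the next class, migratory dendritic-like cells at 49.7 CPM (29.9 to 77.5). Eif2ak3, the PERK kinase, was at 37.1 CPM from 16 UMIs, a log2 ratio of 1.65. Its interval overlapped that of B cell-like cells, the next class, at 25.9 CPM. Atf4 was the lowest of the 10 classes, at 44.0 CPM (26.5 to 68.7), a log2 ratio of -1.52, and Trib3 had 0 UMIs, which allows up to 6.95 CPM. The branch was therefore uneven within 1 cell type. The part of the low UMI number per cell in these levels was not tested.

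Alveolar macrophage-like cells, 1115 in the distal library, had high levels of some members and low levels of others. Canx was at 428 CPM (414 to 442), a log2 ratio over the other distal cells of 1.31, and proliferating alveolar macrophage-like cells followed at 364 CPM (326 to 406). Sel1l, the adaptor of the degradation complex, was at 100.3 CPM (93.6 to 107), a log2 ratio of 1.32, with 92.7 CPM (74.1 to 115) in proliferating alveolar macrophage-like cells. Xbp1 was at 188 CPM (179 to 197), a log2 ratio of 0.96. Ppp1r15a was at 20.7 CPM (17.7 to 24.0), a log2 ratio of -2.96, and Herpud1 at 63.6 CPM (58.3 to 69.3), a log2 ratio of -1.18. The chaperones as a group were near the other cells, with a median of 0.22 against 0.01 for all genes, 6 of 15 past the fold on the higher side and 4 on the lower side, where 30.5% of genes were on each side. By the mean of per-cell CPM that median was 0.48.

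Proliferating alveolar macrophage-like cells, 94 in the distal library, had the highest level of 4 Atf4 branch genes among 10 distal classes and the lowest of 1, Ppp1r15a. Many genes ran high in this class, with 7171 of 11992 above 0 over the other distal cells. Which share of them was highest there is not given. Over the other distal cells 3 of 6 measured branch genes were past the fold on the higher side and 1 on the lower side, where 22.1% of all genes were higher and 11.5% lower. Atf4 was at 215 CPM (186 to 247), Asns at 38.2 CPM (26.6 to 53.1), Trib3 at 12 CPM (5.99 to 21.5) and Chac1 at 4.36 CPM from 4 UMIs. Ppp1r15a was at 19.6 CPM (11.6 to 31.0), a log2 ratio of -2.47. For the 4 highest genes the interval overlapped that of the next class, a cluster led by the endothelial genes Cldn5 and Egfl7 for Atf4, Asns and Trib3 and neutrophil-like cells for Chac1. Hspa5 in these cells was at 341 CPM (305 to 381), a log2 ratio over the other distal cells of -0.96. The chaperone median over the other distal cells was -0.13, against 0.17 for all genes.

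Among the sensors, Atf6 was highest in non-classical monocyte-like cells. It was at 94.5 CPM (55.1 to 151) in the 35 niche cells and 105 CPM (85.9 to 126) in the 258 distal cells of that class, the first from 17 UMIs, and the next distal class of 50 or more cells was at 43.7 CPM. In the distal library its log2 ratio over the other cells was 1.65. Xbp1 was highest in the 31 distal plasmacytoid dendritic-like cells, at 361 CPM (285 to 451), a log2 ratio of 1.49. Those cells also had 1134 CPM of Hsp90b1 (997 to 1285) and 278 CPM of Dnajc3 (212 to 358). B cell-like cells of the distal library had 927 CPM of Hsp90b1 (851 to 1009) and 107 CPM of Pdia4 (82.1 to 137), but 41.4 CPM of P4hb (26.6 to 61.7), a log2 ratio of -1.73 for the last.

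**Figure D3:**
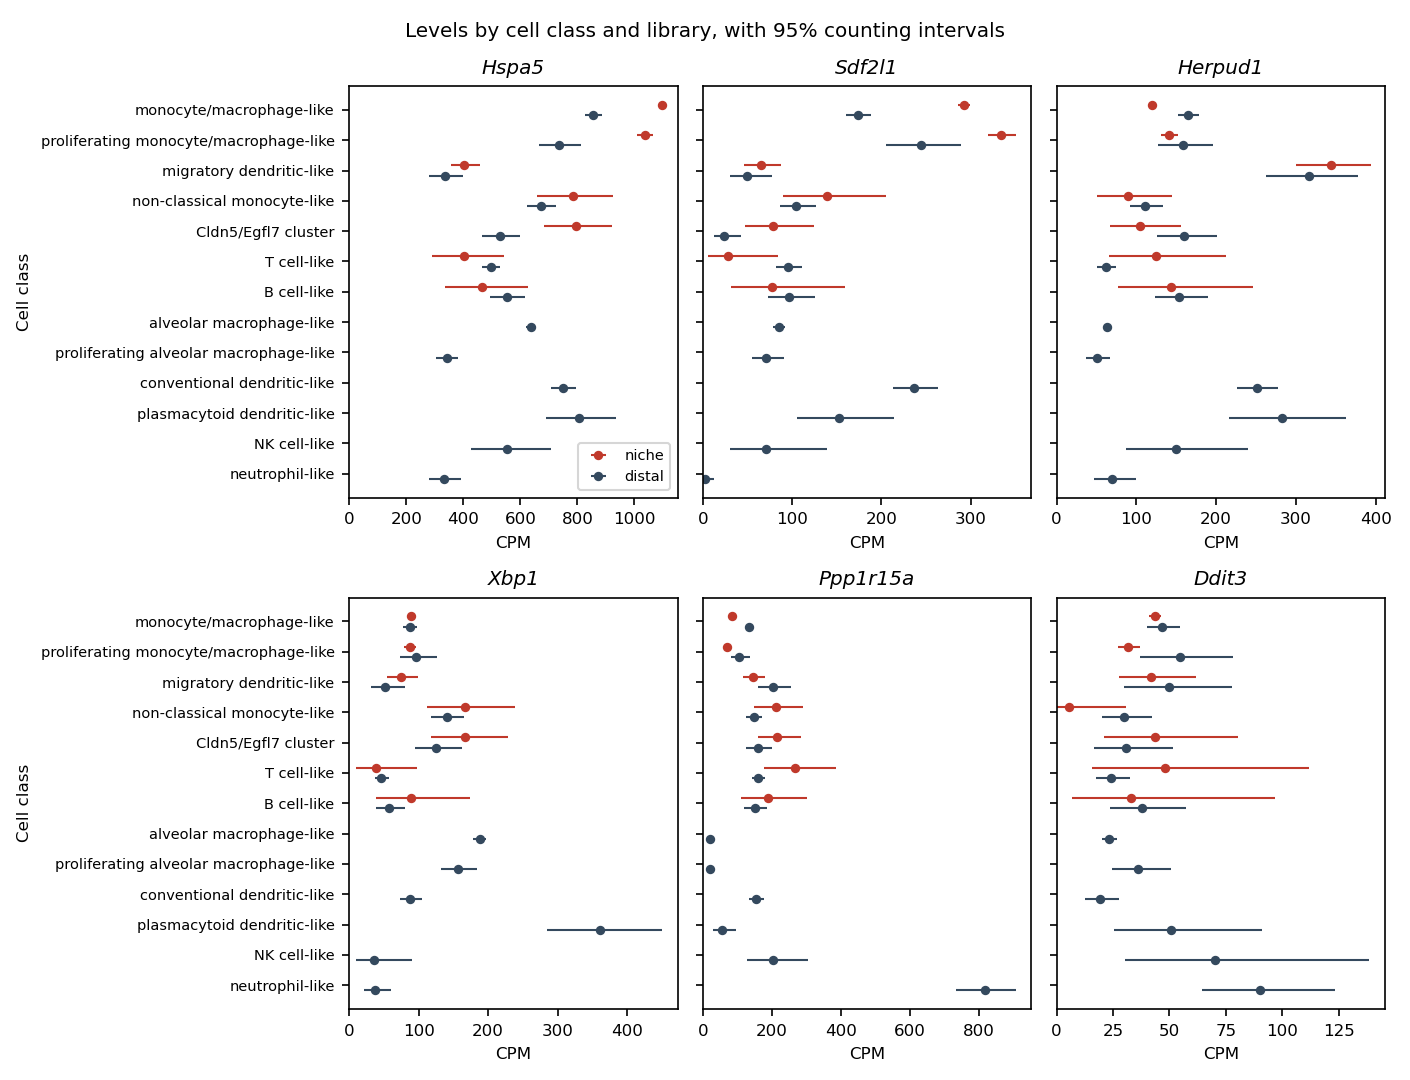
Each panel gives the CPM of 1 gene on the x axis for each class with 30 or more cells, niche points above distal points, with 95% counting intervals. Hspa5 and Sdf2l1 are highest in monocyte/macrophage-like classes of the niche library, Herpud1 in migratory dendritic-like cells, Xbp1 in plasmacytoid dendritic-like cells, and Ppp1r15a in neutrophil-like cells at 818 CPM.

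In the niche library, proliferating monocyte/macrophage-like cells, 225 niche and 38 distal, had the highest level of 11 of 15 chaperones among the 3 named classes with 50 or more cells. How often any gene was highest in that class is not given. The low-UMI cluster, which is no named class, had 609 CPM of Manf (543 to 682) and 121.5 CPM of Creld2 (92.9 to 156) in its niche cells. Manf was at 548 CPM in niche proliferating cells and 387 CPM in distal ones, and Creld2 at 117 CPM in niche proliferating cells and 74.8 CPM in distal ones. The median chaperone log2 ratio of niche over distal in these cells was 0.46, with 15 of 15 above 0, beside a median of -0.91 for the dissociation list. No median or share over all genes is given for these cells, so the 15 of 15 has no background beside it. T cell-like and B cell-like cells gave the other sign, with medians of -0.71 from 36 niche and 370 distal cells and -0.57 from 38 niche and 199 distal cells, against -0.11 and -0.10 for all genes. In T cell-like cells the 14 cycling genes had a median of -2.30. Non-classical monocyte-like cells had a chaperone median of 0.26, against -0.02 for all genes, beside neutrophil markers at 122 CPM in niche cells and 248.6 CPM in distal cells. The cluster led by Cldn5 and Egfl7 had 0.31, against 0.09 for all genes. Its neutrophil markers were at 101 CPM in niche cells and 1158 CPM in distal cells, and its B cell markers at 149 CPM in niche cells and 344 CPM in distal cells. The part of other cells' RNA in these medians was not tested.

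Most chaperones followed the mean of the others across cell groups, and 3 did so less in the niche library. Over the classes and clusters with 30 or more cells, 12 groups in the niche library and 18 in the distal library, Pearson's r of each gene with the mean of the other chaperones was computed on log2 levels as a description, since groups of 1 library share depth and preparation and some clusters lie within classes. Pdia6 had r of 0.99 in the niche library and 0.95 in the distal library, and Ssr1, outside the chaperones, had 0.93 in the niche library and 0.90 in the distal library. Dnajb9 had 0.33 in the niche library and -0.07 in the distal library, the lowest of the chaperones in each. Hyou1 had 0.39 in the niche library and 0.60 in the distal library, and Dnajc3 had 0.40 in the niche library and 0.72 in the distal library. Asns, of the Atf4 branch, had 0.72 in the niche library and 0.014 in the distal library. Ppp1r15a had -0.77 in the niche library and -0.68 in the distal library.

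**Figure D4:**
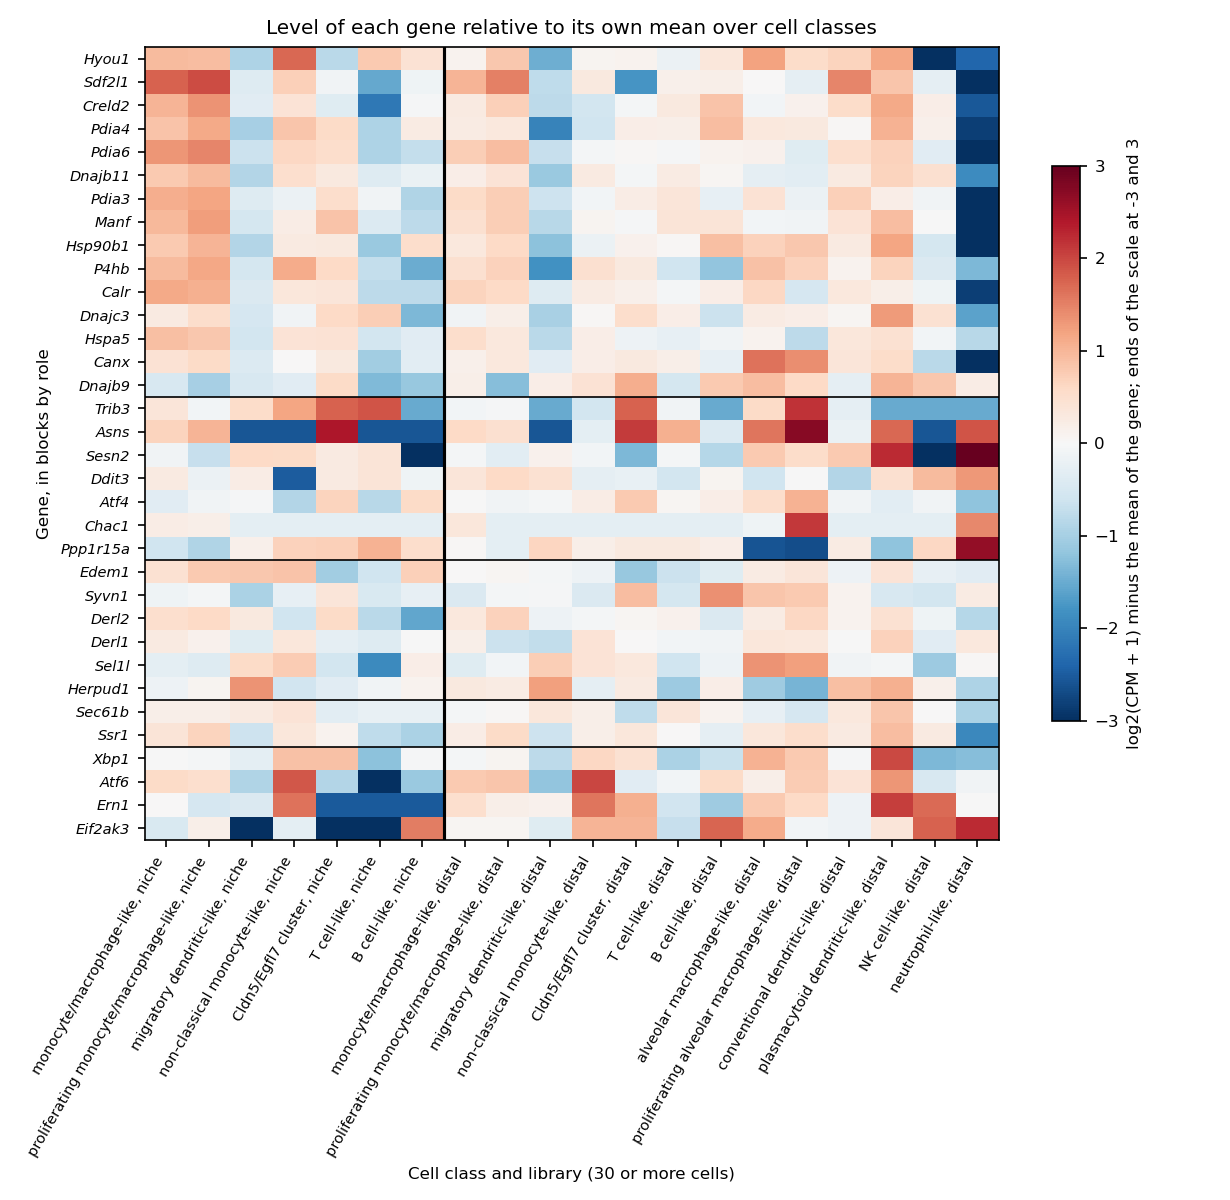
Colour gives the log2(CPM + 1) of each gene minus its own mean over the cell classes with 30 or more cells, with niche classes left of the line and distal classes right of it, and genes in blocks by role. Most chaperone rows are red together in the monocyte/macrophage-like columns and blue together in neutrophil-like and migratory dendritic-like cells. Dnajb9 does not follow them. The darkest cells of rare genes such as Asns and Eif2ak3 are groups with 0 UMIs.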

How the data were processed

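Sorted lung immune cells were measured in 1 niche and 1 distal library by droplet 3′ single-cell RNA-seq. The authors deposited filtered matrices of raw UMI counts per gene and cell. The niche matrix was written by cellranger-6.0.0 and the distal one by 3.0.2, per the file headers; Cell Ranger 3.02, Seurat 4.1.1, RSEM, Bowtie2, mm10 and GRCm38 are named in the submitters' processing notes, without roles. The gene lists held 32285 niche and 30149 distal genes, of which 29413 were shared by Ensembl identifier; 442 of these overlap exons of a gene on 1 list only.

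A cell was kept if it had at least 200 genes detected and no more than 10% of its UMIs from mitochondrial genes. The doublet caller marked 5 of 6621 cells (0.0755%) and is taken as not having worked, so the highest 5% of doublet scores were left out as an alternative. Cells were clustered into 28 clusters with scanpy 1.11.5 and leidenalg 0.10.2 (2000 variable genes, 30 components, 20 neighbours, resolution 1) without the 34 genes, related pathway genes, mitochondrial genes and the 442 overlapping genes. Clusters were named from marker lists, by thresholds set after the clusters were seen; clusters with markers of more than 1 lineage are called mixed.

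UMIs were summed per class and library and divided by all UMIs of the class. Ratios had 0.5 UMI added to each sum, and genes needed 20 UMIs over both sums. Levels carry exact Poisson intervals and ratios exact conditional binomial intervals, computed with scipy 1.17.1 at 95%; where a sum is 0, the limit is 3 counts over the class total. Classes of 50 or more cells in each library were compared, and those of 30 to 49 cells give values only. The ratio calculation was tested on simulated data. Values per library are printed for the 12 genes with the largest ratios in the monocyte/macrophage-like class whose interval excluded 0, and for genes named for their level in a class; of other pathway lists, the 3 highest and 3 lowest with 100 or more UMIs are named, except 1 that is not reported here. The genes and lists were chosen with earlier results of these data known.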

Additional observations from a re-analysis of the deposited data

Results flagged for a closer look

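The mixed clusters, which the niche over distal comparisons of the report leave out, gave a further value: their median log2 ratio of niche over distal was 0.66 over 15 chaperones, of which 13 were above 0, against -0.06 for all genes. The mixed clusters count among the other cells in the ratios of a class over the rest of its library, and 1 alternative adds those with macrophage markers. They held 265 niche and 218 distal cells. Neutrophil markers summed to 3067 CPM in niche cells and 10982 CPM in distal cells, T cell markers to 459 CPM in niche cells and 617 CPM in distal cells, and cycling markers to 226 CPM in niche cells and 51.5 CPM in distal cells. The part of these mixtures in the ratio was not tested.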

How the results depend on the processing

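No paired analysis was possible because each group has 1 library. Over 14 alternatives in monocyte/macrophage-like cells, the chaperone median stayed between 0.30 and 0.54. It was 0.30 in the largest cluster alone, with 3 chaperones past the fold on the higher side, and 0.40 by the mean of the ratios within 6 clusters, an alternative added after seeing the data. The count of chaperones past the fold on the lower side was 0 with cells thinned to 2000 UMIs and 0 by the mean within clusters. The count of Atf4 branch genes past the fold on the lower side was 1 at Leiden resolution 2.0, 1 with ratios centred on the median of all genes, 1 after thinning and 1 without cells holding other lineages' markers. That count was 0 in the largest cluster and 0 by the mean within clusters. In the largest cluster alone Hspa5 was -0.068, Dnajb11 -0.053, Atf4 0.015 and Ppp1r15a 0.085, and after thinning Derl2 was -0.061, each with the sign turned. Among genes not past the fold, Syvn1 was -1.08 and Ern1 1.54 in that cluster, the second with 0 distal UMIs. The chaperone median of alveolar macrophage-like cells over the other distal cells was 0.48 by the mean of per-cell CPM. The cause was not tested. The median of the Atf4 branch lay between -0.22 and 0.13, and that of the chaperones of neutrophil-like cells over the other distal cells between -3.31 and -2.87.

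The difference in depth limits rare genes most: Chac1, Trib3, Asns, Sesn2 and the sensors Ern1 and Eif2ak3 had under 30 distal UMIs in the class. Thinning left out 41 niche and 9 distal cells; thinning of neutrophil-like cells was not run, since their median is 1062 UMIs.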
